A study of Mus musculus with 12 samples.

Results

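The ribonuclease A family genes Rnase4, Rnase6, Ang and Ang4, which lie in 1 cluster on chromosome 14, were followed across macrophages of the ERRα+/+ and ERRα-/- genotypes of the nuclear receptor ERRα. They were taken as the probes whose transcript accession belongs to these genes: 4 probes of 55681 and 4 genes of 20887 named on the array. They were chosen by their processed signals in the 4 groups of these same arrays, with the LPS and genotype differences already known. Their values are therefore a description, and no p-value is given for them. Counts of calls among them stand beside the share of all genes and support nothing, since the choice used these same differences.

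Enzymes of the ribonuclease A superfamily are small secreted proteins, held by disulphide bonds, that cut RNA after pyrimidines. Many of them are cationic and act in host defence, and the vertebrate members have spread by gene duplication into a cluster that differs between mammals. Angiogenin is known for inducing blood vessel growth and for cutting transfer RNA in stressed cells, and it is held in check in the cytosol by the ribonuclease inhibitor.

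Bone marrow-derived macrophages, which grow out of marrow progenitors under macrophage colony-stimulating factor, were profiled on 12 1-colour arrays. The marrow donors were male C57BL6 mice of 6 to 8 weeks, and culture lasted 5 to 7 days. The 4 groups of 3 arrays were ERRα+/+ cells with PBS, the solvent, ERRα+/+ cells with LPS, ERRα-/- cells with PBS and ERRα-/- cells with LPS. LPS, the bacterial outer membrane component that macrophages sense through TLR4, was used at 100 ng/mL, for a time the labels do not state. ERRα is an orphan nuclear receptor that switches on oxidative metabolism. The labels do not say how the allele was made, whether animals were pooled or whether replicates were separate animals or cultures. P-values then measure only the spread between these samples, which may be technical.

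Levels are log2 processed signals relative to each array's 75th percentile, so a level of 0 is that percentile. Replicate 1 of each group was on slide 1 (4 arrays) and replicates 2 and 3 on slide 2 (8 arrays). The 75th percentile of the signal ranged from 340 to 701, 46.3% to 57.4% of spots per array were well above background, and the number of arrays limits the precision. Esrra, which encodes ERRα, read 4.19 to 4.49 in ERRα+/+ PBS cells against -0.06 to 2.28 in ERRα-/- PBS cells, and 5.66 to 6.14 against 3.61 to 4.2 under LPS. It was thus lower in ERRα-/- cells given the same agent, but the probe still gave signal there: the highest of the ERRα-/- PBS values, 2.28, was replicate 1, and ERRα-/- LPS replicate 1 (4.2) was at the level of ERRα+/+ PBS replicate 2 (4.19). The place of the probe relative to the deleted part is not known here, so the loss of the product was not checked by it. All 9 macrophage markers on the array were well above background on every array.

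RefSeq start windows of the 4 genes (GRCm38.p6, the 250 bases before each annotated start) are shown because the genes moved together across the groups. Rnase4 and Ang have an identical start window, so a transcript from it may belong to either gene; Rnase4 has 1 further start window and Rnase6 has 3, of which 2 overlap. Capitals mark AGGAAGT, an ETS core as in sites of PU.1, the myeloid master regulator; matches on both strands were searched.
Rnase4 and Ang, shared window, chr14:51090827-51091076, plus strand: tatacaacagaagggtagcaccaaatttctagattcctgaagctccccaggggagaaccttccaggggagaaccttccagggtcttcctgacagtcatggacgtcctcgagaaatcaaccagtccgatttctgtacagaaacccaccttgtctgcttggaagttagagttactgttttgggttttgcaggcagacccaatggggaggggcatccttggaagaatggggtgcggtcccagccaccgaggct
Rnase4, second window, chr14:51095750-51095999, plus strand: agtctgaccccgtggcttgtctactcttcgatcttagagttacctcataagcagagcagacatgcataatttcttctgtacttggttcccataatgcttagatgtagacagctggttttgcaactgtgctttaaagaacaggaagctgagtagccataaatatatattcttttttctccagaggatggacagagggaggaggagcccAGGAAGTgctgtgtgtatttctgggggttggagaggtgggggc
Rnase6, outer window, chr14:51123658-51123907, plus strand: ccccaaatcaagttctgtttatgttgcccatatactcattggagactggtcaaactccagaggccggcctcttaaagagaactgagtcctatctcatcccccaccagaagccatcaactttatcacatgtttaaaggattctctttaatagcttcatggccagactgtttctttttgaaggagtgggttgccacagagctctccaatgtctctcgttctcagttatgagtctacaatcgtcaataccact
Rnase6, inner window, chr14:51128814-51129063, plus strand: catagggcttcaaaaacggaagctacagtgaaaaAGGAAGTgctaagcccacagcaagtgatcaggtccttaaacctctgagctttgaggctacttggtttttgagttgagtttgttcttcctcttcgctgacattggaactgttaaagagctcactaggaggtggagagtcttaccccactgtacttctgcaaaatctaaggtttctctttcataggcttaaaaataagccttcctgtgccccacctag
Ang4, chr14:51773591-51773840, minus strand: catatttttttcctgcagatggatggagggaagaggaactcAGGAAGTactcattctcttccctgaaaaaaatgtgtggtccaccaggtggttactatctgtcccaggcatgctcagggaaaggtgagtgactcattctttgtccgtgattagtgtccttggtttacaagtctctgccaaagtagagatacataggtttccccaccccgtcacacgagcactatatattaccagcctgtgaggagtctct
AGGAAGT lay at -43 to -37 from the start in the second Rnase4 window, at -216 to -210 in the inner Rnase6 window and at -209 to -203 in the Ang4 window. Of 32817 RefSeq windows of this length, 7.69% hold it. The ERR extended half-site TNAAGGTCA, held by 1.14% of windows, and the shorter AGGTCA within it, held by 14%, had no match in any window of the 4 genes. A match is a description of letters, and its absence says only that these letters are not in these windows.

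The 4 ribonuclease genes shared 1 order of groups. Each was highest in ERRα-/- cells under PBS and lowest in ERRα+/+ cells under LPS, with the untreated ERRα+/+ cells and the LPS-treated ERRα-/- cells between them and overlapping each other. Each was thus higher in ERRα-/- cells and lower with LPS, by 1.63-fold to 1.92-fold for genotype averaged over both treatments and by 1.43-fold to 2.41-fold for LPS. All 4 were well above background on all 12 arrays, so no bound replaces a fold here. In RNA of whole cultures, fewer cells of a type and less RNA per cell cannot be told apart.

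**Figure D1:**
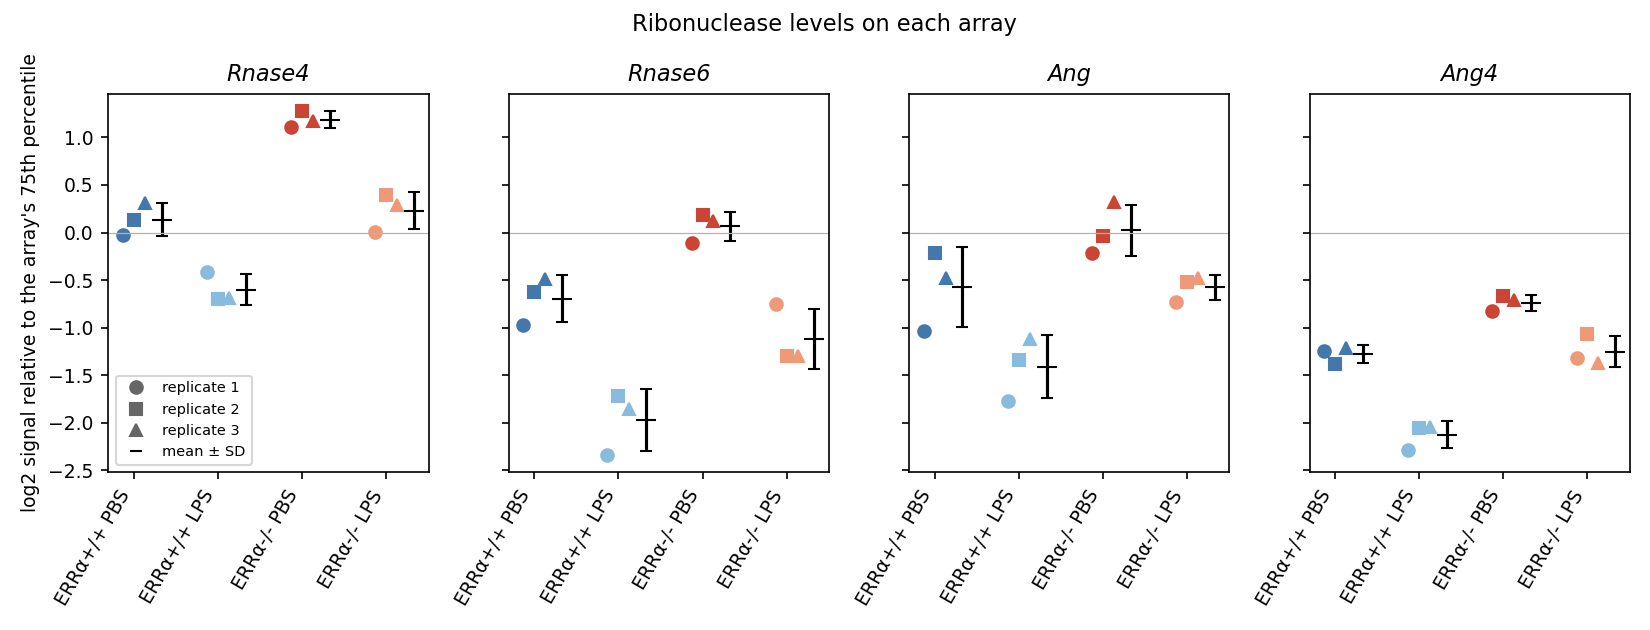
Level of each ribonuclease gene (log2 signal relative to the array's 75th percentile, vertical axis) on the 3 arrays of each group; symbols mark the replicate number and the bar shows the mean ± SD. In every panel the ERRα-/- PBS arrays are highest and the ERRα+/+ LPS arrays lowest, as for Rnase4 with means of 1.19 and -0.60.

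Rnase4, a ribonuclease with a preference for cutting at uridine that is widely secreted, had the largest averaged genotype difference of the 4. Its levels in replicates 1, 2 and 3 were -0.03, 0.13 and 0.31 in ERRα+/+ PBS cells and 1.11, 1.28 and 1.17 in ERRα-/- PBS cells. The LPS arrays read -0.41, -0.70 and -0.69 for ERRα+/+ and 0.01, 0.39 and 0.29 for ERRα-/-. The genotypes did not overlap under either treatment: every ERRα-/- array was above every ERRα+/+ array given the same agent. The processed signals behind these levels ran from 231 in ERRα+/+ LPS cells to 1520 in ERRα-/- PBS cells.

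The genotype difference of Rnase4 was 1.05 ± 0.16 (SE, log2, n = 3 arrays per group) under PBS and 0.83 ± 0.16 under LPS, which averaged to 0.94 ± 0.11 or 1.92-fold. It ranked 127 of 13118 genes tested by its averaged difference. The LPS difference was -0.74 ± 0.16 for the ERRα+/+ and -0.96 ± 0.16 for the ERRα-/- genotype. The difference between these LPS responses was -0.22 ± 0.22, with a 95% interval from -0.71 to 0.28. The ERRα+/+ LPS response was uneven over the slides: -0.38 between the replicate 1 arrays and -0.83 and -1.0 for the other pairs.

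Rnase6, also called RNase k6, is an antimicrobial ribonuclease of monocytes and macrophages. Its levels were -0.97, -0.63 and -0.49 in ERRα+/+ PBS cells and -0.11, 0.18 and 0.12 in ERRα-/- PBS cells. The LPS arrays read -2.34, -1.72 and -1.85 for ERRα+/+ and -0.75, -1.30 and -1.30 for ERRα-/-. The genotypes again stood apart under each treatment, and replicate 1 was the extreme array of both LPS groups, in opposite directions. It had the largest LPS response of the 4: -1.27 ± 0.22 (2.41-fold lower) in ERRα+/+ cells and -1.18 ± 0.22 (2.26-fold lower) in ERRα-/- cells.

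The genotype difference of Rnase6 was 0.76 ± 0.22 under PBS, 0.85 ± 0.22 under LPS and 0.81 ± 0.16 averaged (1.75-fold). The LPS value differed between slides: it was 1.58 between the replicate 1 arrays but 0.42 and 0.55 between those of replicates 2 and 3. The difference between the LPS responses was 0.09 ± 0.31 (95% interval -0.60 to 0.78), and within slide 2 it was -0.23. Under PBS the same-numbered differences were 0.85, 0.81 and 0.61.

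The Rnase6 probe was printed 10 times per array, which allows its measurement error on an array to be seen; each of the other genes had 1 spot. The log2 SD between its spots was 0.0558 to 0.208. The spots of ERRα-/- LPS replicate 1 had levels of -0.93 to -0.38, against -1.45 to -1.16 and -1.37 to -1.21 in replicates 2 and 3. That array therefore stood apart from the other two by more than the scatter of its spots.

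**Figure D2:**
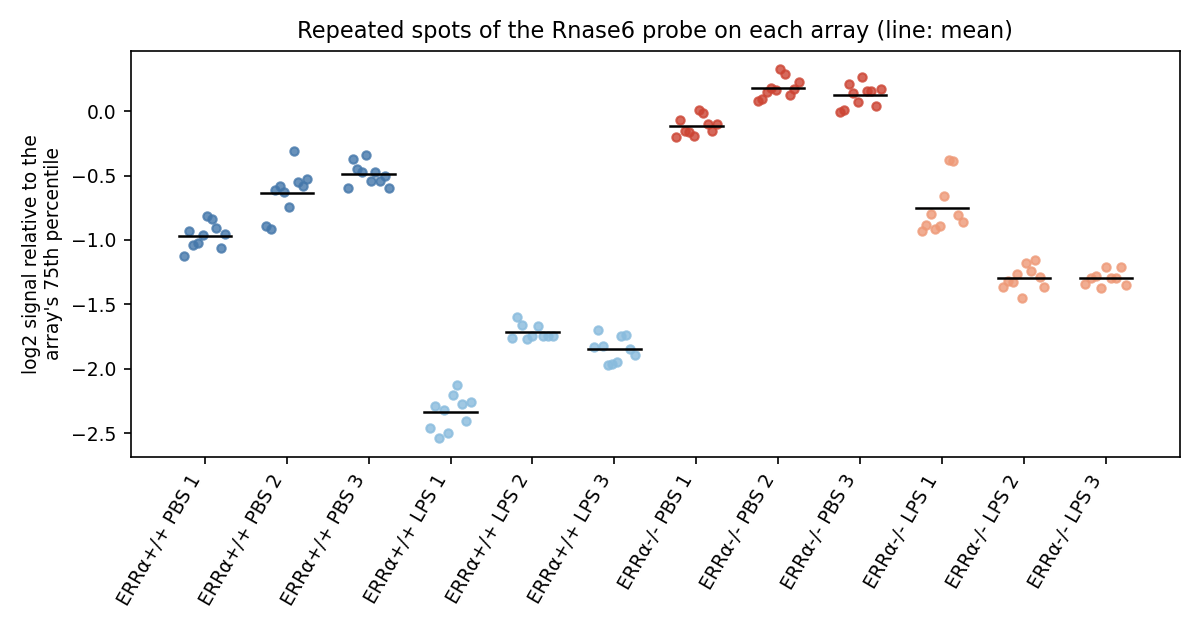
Level of every used spot of the Rnase6 probe (log2 signal relative to the array's 75th percentile) on each of the 12 arrays, with a line at the array mean. The spots of ERRα-/- PBS arrays lie between -0.20 and 0.33 and those of ERRα+/+ PBS arrays between -1.12 and -0.31, whereas the ERRα-/- LPS spots spread from -1.45 to -0.38, with replicate 1 higher.

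Ang encodes angiogenin. Its levels were -1.03, -0.21 and -0.48 in ERRα+/+ PBS cells and -0.21, -0.04 and 0.32 in ERRα-/- PBS cells. On the LPS arrays it read -1.77, -1.34 and -1.12 for ERRα+/+, and -0.73, -0.52 and -0.48 for ERRα-/-. Under PBS the genotypes came within rounding of each other, at -0.21, while under LPS they were parted by 0.39. Replicate 1 was the lowest array in all 4 groups.

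Ang was higher in ERRα-/- cells by 0.60 ± 0.24 under PBS, 0.83 ± 0.24 under LPS and 0.72 ± 0.17 averaged (1.64-fold). Its LPS difference was -0.84 ± 0.24 for the ERRα+/+ and -0.60 ± 0.24 for the ERRα-/- genotype. Compared within each replicate number, the PBS genotype difference was 0.83, 0.17 and 0.80. The second of these involved ERRα+/+ PBS replicate 2, the array on which repeated spots of the same probe varied most, with a median coefficient of variation of 12.5% against 3.75% to 8.23% on the other arrays. Leaving that array out gave a PBS difference of 0.78, and leaving out ERRα+/+ PBS replicate 1, the lowest PBS array, gave 0.37. The difference between the LPS responses of Ang was 0.24 ± 0.35 (95% interval -0.53 to 1.00).

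Ang4 encodes an angiogenin best known as a microbicidal protein of Paneth cells in the mouse gut. Its levels were -1.24, -1.38 and -1.21 in ERRα+/+ PBS cells and -0.83, -0.67 and -0.71 in ERRα-/- PBS cells. On the LPS arrays it read -2.29, -2.05 and -2.04 for ERRα+/+, and -1.32, -1.07 and -1.37 for ERRα-/-. The arrays of a group lay close together, with SDs of 0.09 to 0.16, and no genotypes overlapped. The signal was modest, from 90.7 to 394.

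The genotype difference of Ang4 was 0.54 ± 0.14 under PBS and 0.87 ± 0.14 under LPS, 0.70 ± 0.10 averaged (1.63-fold). Its LPS difference was -0.85 ± 0.14 for the ERRα+/+ and -0.52 ± 0.14 for the ERRα-/- genotype. The difference between the LPS responses was 0.33 ± 0.20, with a 95% interval of -0.11 to 0.77. With another background correction (normexp), the averaged difference of Ang4 was 0.39.

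**Figure D3:**
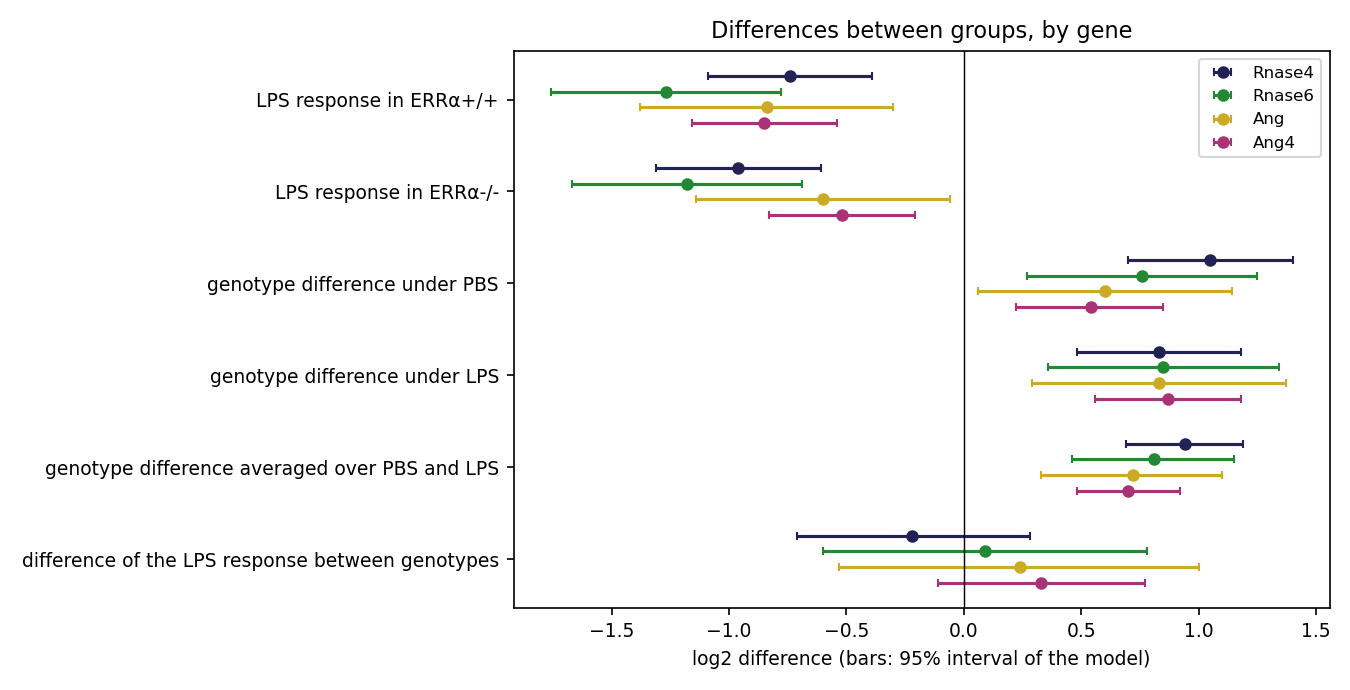
Log2 differences of the 4 genes (points) with the 95% interval of the model (bars) for the 6 contrasts, n = 3 arrays per group. The LPS responses lie below 0 and the genotype differences above 0 for each gene, while the intervals of the difference between LPS responses include 0, as for Rnase4 (-0.71 to 0.28).

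The 2 groups in the middle of the order lay close together for 3 of the 4 genes. The mean of ERRα+/+ PBS against ERRα-/- LPS cells was 0.14 ± 0.17 against 0.23 ± 0.20 for Rnase4 (SD, n = 3 each), -0.57 ± 0.42 against -0.58 ± 0.14 for Ang and -1.27 ± 0.09 against -1.26 ± 0.16 for Ang4. For Rnase6 it was -0.70 ± 0.24 against -1.12 ± 0.31. The arrays of these 2 groups overlapped for all 4 genes.

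Across all genes tested, limma counted 4 of the 4 as lower with LPS in ERRα+/+ cells at an adjusted p under 0.05, in a comparison that called 46.0% of genes in either direction and 24.1% as lower. In ERRα-/- cells it counted 3 of the 4, all but Ang, where 50.5% of genes were called and 25.6% as lower. With the replicate number as a block, Ang was counted there too, and 63.6% of genes were called. The replicate block counted all 4 in ERRα+/+ cells, with 60.6% of genes called. In the fit without a block, the ERRα+/+ count of Ang was lost with normexp background correction. It was also lost without LPS replicate 1, PBS replicate 2 or PBS replicate 3 of that genotype.

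For genotype, limma counted 1 of the 4 (Rnase4) as higher under PBS, where 0.450% of genes were called, 0.0686% as higher; the replicate block also counted 1, with 1.56% called. Under LPS it counted 0 of the 4, with 0.130% of genes called. The replicate block counted 3 there (Rnase4, Ang and Ang4), where 1.02% were called. Averaged over both treatments it counted 3, all but Ang, where 1.33% of genes were called, 0.374% as higher, and the block counted all 4, with 3.90% called. The PBS count of Rnase4 was lost with no filter on dim probes and without any of 6 arrays: ERRα+/+ PBS replicates 1 and 2, ERRα+/+ LPS replicate 3 and each ERRα-/- PBS replicate. The averaged count of Rnase6 was lost without 11 of the 12 arrays in turn, ERRα-/- LPS replicate 1 being the exception, with its difference between 0.71 and 0.87. With normexp the averaged count was 1, Rnase4. The genes were chosen with these differences known, so these counts only describe them.

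For the difference between the LPS responses, limma counted 0 of the 4 and 0 genes in all (0% called). No ribonuclease gene and 288 genes (2.2%) were under an unadjusted p of 0.05. The replicate block also gave 0.

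The ERRα-/- arrays of every one of the 4 genes lay above the ERRα+/+ arrays without overlap under PBS, as did those of 5.61% of all genes, and under LPS, as did those of 4.61%. Likewise the PBS arrays of all 4 lay above the LPS arrays, as for 27.9% of genes in ERRα+/+ and 29.9% in ERRα-/- cells. The choice of the genes fixed these counts. The median difference over the 4 was -0.85 for LPS in ERRα+/+ cells, -0.78 in ERRα-/- cells and 0.76 for genotype averaged, against 0, 0.039 and -0.019 over all genes.

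Of 21 other listed members of the superfamily, 13 were on the array, and 8 passed the filter of being well above background on all 3 arrays of a group. None of the 8 was called in a genotype contrast in the fit without a block. Ang2, an angiogenin paralogue in the cluster, had the LPS direction of the 4 genes: its LPS response was -0.99 ± 0.19 in ERRα+/+ (adjusted p = 0.00185) and -0.90 ± 0.19 in ERRα-/- cells (adjusted p = 0.00277), both called as falls, and both were lost with normexp background correction (adjusted p = 0.116 and 0.334). It was well above background on 2 of the 3 ERRα+/+ LPS arrays. Its genotype difference averaged 0.58 ± 0.13, which missed the threshold (adjusted p = 0.0764) and passed with the replicate block (adjusted p = 0.0195). That difference was 0.28 with normexp (adjusted p = 0.639) and 0.49 within slide 2 (adjusted p = 0.0555), neither of which passed. Ang, Ang2 and Ang4 are close paralogues, and how far each probe reads the others was not tested, since the probe sequences were not used here.

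The eosinophil-associated ribonucleases had averaged genotype differences below 0. Ear1, Ear2, Ear10 and Rnase2a, cationic ribonucleases first found in eosinophil granules, differed by -1.08 ± 0.78, -1.19 ± 0.68, -1.05 ± 0.65 and -1.06 ± 0.79 in ERRα-/- against ERRα+/+ cells, averaged over treatments. None of these passed in the fit without a block, nor with normexp (adjusted p = 0.708 to 0.881). With the replicate block all 4 fell (adjusted p = 0.0407, 0.0167, 0.0234 and 0.0195), and under PBS alone Ear2 and Rnase2a did (-1.55 and -1.36; adjusted p = 0.041 and 0.0492). Ear6, Rnase10 and Rnase12 were not called by either fit for the averaged difference. Within slide 2 they were lower (adjusted p = 0.00657, 0.00477 and 0.00573), with differences of -0.56 for Ear6 and -0.72 for Rnase10. Rnase12 was well above background on 2 of 3 ERRα-/- PBS and 1 of 3 ERRα-/- LPS arrays, so no size is given for it. Slide 2 holds only replicates 2 and 3 of each group, and 20.5% of genes were called there for the averaged difference.

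The signals of these genes differed between slides. Ear2 read 3.36, 1.70 and 1.47 in ERRα+/+ PBS cells and 2.13, -0.05 and -0.20 in ERRα-/- PBS cells. The LPS arrays gave 2.63, 0.84 and 0.90 for ERRα+/+ and 2.70, -0.14 and -0.69 for ERRα-/-. Replicate 1, the slide 1 array, was the highest of each group, and the ERRα-/- arrays were the lower ones in 5 of the 6 same-numbered pairs, all but replicate 1 under LPS. Within slide 2, where 20.5% of genes were called for the averaged difference, that of Ear2 was -1.50 (adjusted p = 0.00222). For Rnase4, Rnase6, Ang and Ang4 the averaged differences within slide 2 were 1.02, 0.60, 0.61 and 0.71. These Ear genes are near-identical copies, so their probes may read one another.

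**Figure D4:**
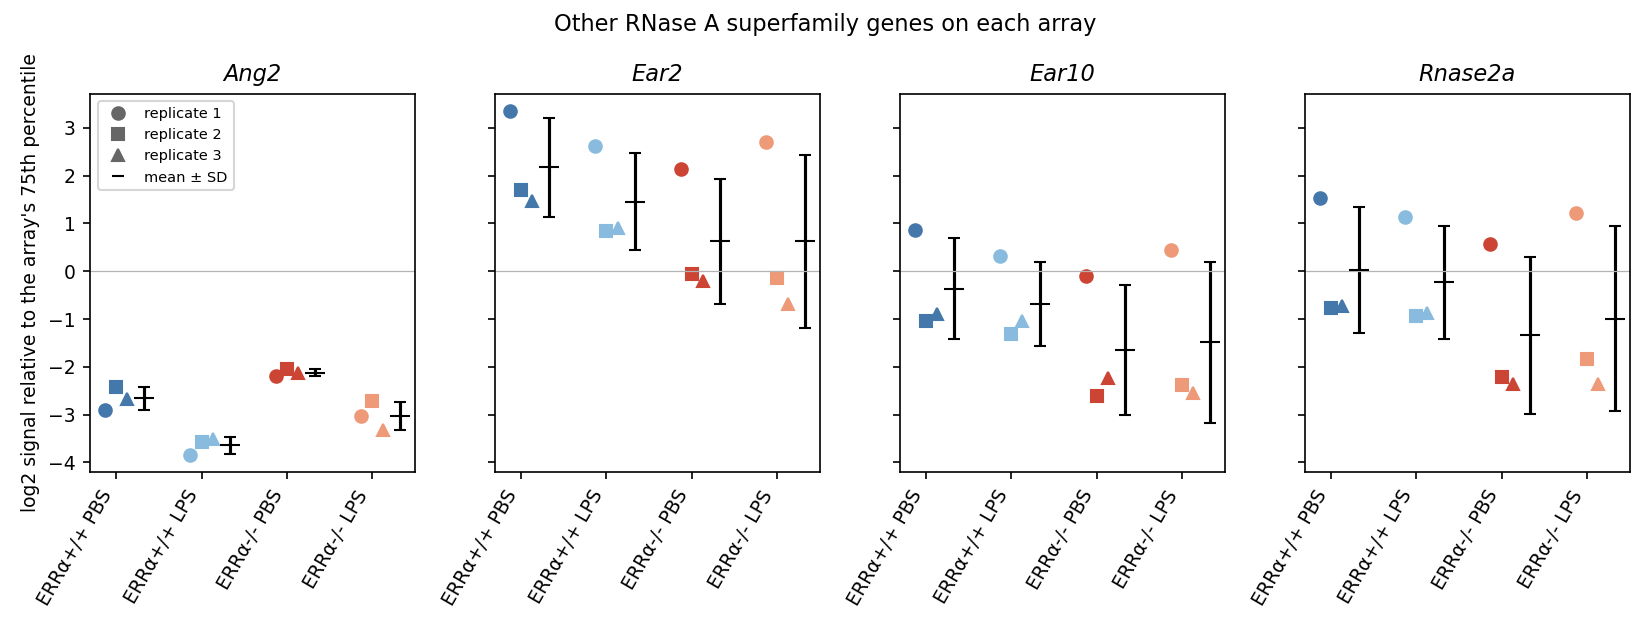
Level of 4 other RNase A superfamily genes (log2 signal relative to the array's 75th percentile) on the 3 arrays of each group, with mean ± SD. Ang2 has the group order of the 4 described genes, whereas Ear2, Ear10 and Rnase2a are highest on replicate 1 in every group and, on replicates 2 and 3, lower in ERRα-/- cells, as for Ear2 under PBS (1.70 and 1.47 against -0.05 and -0.20).

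Markers of other cells the cultures could hold were measured beside these genes. Of 7 eosinophil markers on the array, 5 were well above background on all 3 arrays of each group and Alox15 on none; their summed linear level ran from 7.40 to 16.5 in ERRα+/+ PBS and from 4.30 to 12.6 in ERRα-/- PBS cells. Prg2, the eosinophil major basic protein gene, was the brightest of those tested and so weighs most in this sum. Prg2 had the same high replicate 1 as Ear2, at 3.70 against 2.30 and 2.53 in ERRα+/+ PBS cells. It differed by -0.51 ± 0.55 averaged over treatments. No eosinophil marker passed for genotype, with or without the replicate block. Within slide 2, where 20.5% of genes were called, the averaged differences went both ways. Prg2, Prg3 and Ccr3 were lower (-0.85, -1.06 and -0.51, adjusted p = 0.0124, 0.00889 and 0.0114). Siglecf was higher (0.41, adjusted p = 0.018) and Il5ra was not called (0.12, adjusted p = 0.778). The part of these cells in the Ear values was not tested.

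The summed level of 11 stromal and endothelial markers was 19.9 to 23.4 in ERRα-/- PBS against 33.2 to 38.8 in ERRα+/+ PBS cells. A sum of linear levels follows its brightest markers. In ERRα+/+ PBS cells these were Sparc and Kdr here (mean levels 4.07 and 3.51) and S100a9 (7.69) among the neutrophil markers. Sparc and Cxcl12, 2 of the 9 tested, passed as lower (-1.37 and -1.51, adjusted p = 0.0245 and 0.0387). The endothelial markers Kdr, Pecam1 and Cdh5 were not called (-0.01, -0.36 and -1.54). Lum and Pdgfra were above background on no ERRα-/- PBS array. The neutrophil sum was 204 to 246 against 271 to 388, with 0 of 9 markers called, and the macrophage sum was 1000 to 1470 against 732 to 1350, also with 0 of 9 called. Under LPS all of these sums overlapped between the genotypes. The stromal sum was 20.4 to 32.1 in ERRα-/- against 30.5 to 40.2 in ERRα+/+ cells, with 0 of 9 markers called, and the eosinophil sum 5.49 to 19.6 against 7.43 to 12.9. The neutrophil sum was 274 to 434 against 231 to 459 and the macrophage sum 1620 to 2090 against 1600 to 2020. Dendritic cell markers gave 0 of 5 called for genotype, and Itgax and Clec9a as lower with the replicate block. The part of these cells in the ribonuclease values was not tested.

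LPS moved some of these markers as well. Of the macrophage markers, Cd14 and Marco rose (2.35 ± 0.35 and 4.93 ± 1.67) and Mertk fell (-1.04) in ERRα+/+ cells. Marco was uneven over the ERRα+/+ PBS arrays, with a mean of 3.68 and an SD of 4.28. In ERRα-/- cells Cd14 rose (1.78). The neutrophil granule gene Mpo fell in ERRα+/+ cells (-2.63) and Camp rose in ERRα-/- cells (1.13). The replicate block counted 4 of 9 neutrophil markers as lower in ERRα+/+ cells. That fit called 60.6% of all genes there, in either direction, so the count says little about these markers in particular. Sparc fell in ERRα+/+ (-0.60) and Cxcl12 rose in ERRα-/- cells (1.32). The dendritic cell factor Zbtb46 rose in both genotypes; it was well above background on 3 of 3 LPS arrays but 1 of 3 PBS arrays of each, so no size is given. Siglech rose in ERRα+/+ (1.26, fitted without 1 PBS array that gave no value) and Clec9a in ERRα-/- cells (0.97).

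Partners and other nucleases placed the LPS response of the 4 genes among related enzymes. Plxnb2, a receptor of angiogenin, fell with LPS in both genotypes, the ERRα+/+ difference being -0.49 ± 0.16 (adjusted p = 0.0263) and the ERRα-/- difference -0.73 ± 0.16 (adjusted p = 0.00342). The former call was lost without any of 3 arrays, with adjusted p up to 0.0983. Rnh1, the cytosolic ribonuclease inhibitor, was not called (-0.90 ± 0.66 and -0.61 ± 0.66). Neither passed for genotype.

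Of 4 endolysosomal nucleases on the array, Rnaset2a, an acid ribonuclease of the lysosome, rose with LPS by 1.64 ± 0.38 and 1.59 ± 0.38 in the ERRα+/+ and ERRα-/- cells, and the exonuclease gene Pld4 fell (-0.89 ± 0.23 and -0.91 ± 0.23). Dnase2a and Pld3 were not called, apart from Pld3 with the replicate block in ERRα+/+ cells. Rnaset2a has a near-identical copy, so the value may belong to either. The genotype contrasts called 0 of these 4.

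Ribonucleases of antiviral defence and mRNA decay mostly went the other way from the cluster with LPS. In ERRα+/+ cells 8 of 10 rose, and in ERRα-/- cells likewise 8 rose. Among the rises were Isg20, an interferon-induced exonuclease (4.84 and 4.4), Zc3h12a, which encodes the cytokine mRNA nuclease Regnase-1 (3.16 and 2.55), and Slfn2 (2.88 and 2.75). Ern1, which encodes an endonuclease that senses endoplasmic reticulum stress, fell in ERRα+/+ cells (-0.69) and was not called in ERRα-/- cells (-0.45 ± 0.24). None of the 10 passed for genotype; Isg20 differed by 1.16 ± 0.33 averaged (adjusted p = 0.164).

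Genes beside the ribonucleases on chromosome 14, taken by position in RefSeq's gene order, gave a local comparison. Of 33 other genes in and around the cluster, 29 were on the array and 20 were tested. With LPS, 3 rose and 3 fell in ERRα+/+ cells and 5 and 5 in ERRα-/- cells: the purine nucleoside phosphorylase genes Pnp2 and Pnp rose by 5.56 and 3.78 in ERRα+/+ and by 5.87 and 3.25 in ERRα-/- cells, and Rab2b by 0.37 and 0.51. Ttc5 (-2.1 and -2.0), Zfp219 (-1.49 and -1.06) and Tep1 (-1.41 and -1.28) fell. The cluster's neighbours thus had LPS responses in both directions, in comparisons that called 46.0% of all genes in ERRα+/+ and 50.5% in ERRα-/- cells. These counts therefore show nothing particular to the place. The median genotype difference of the 20 was 0.01, averaged over treatments.

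**Figure D5:**
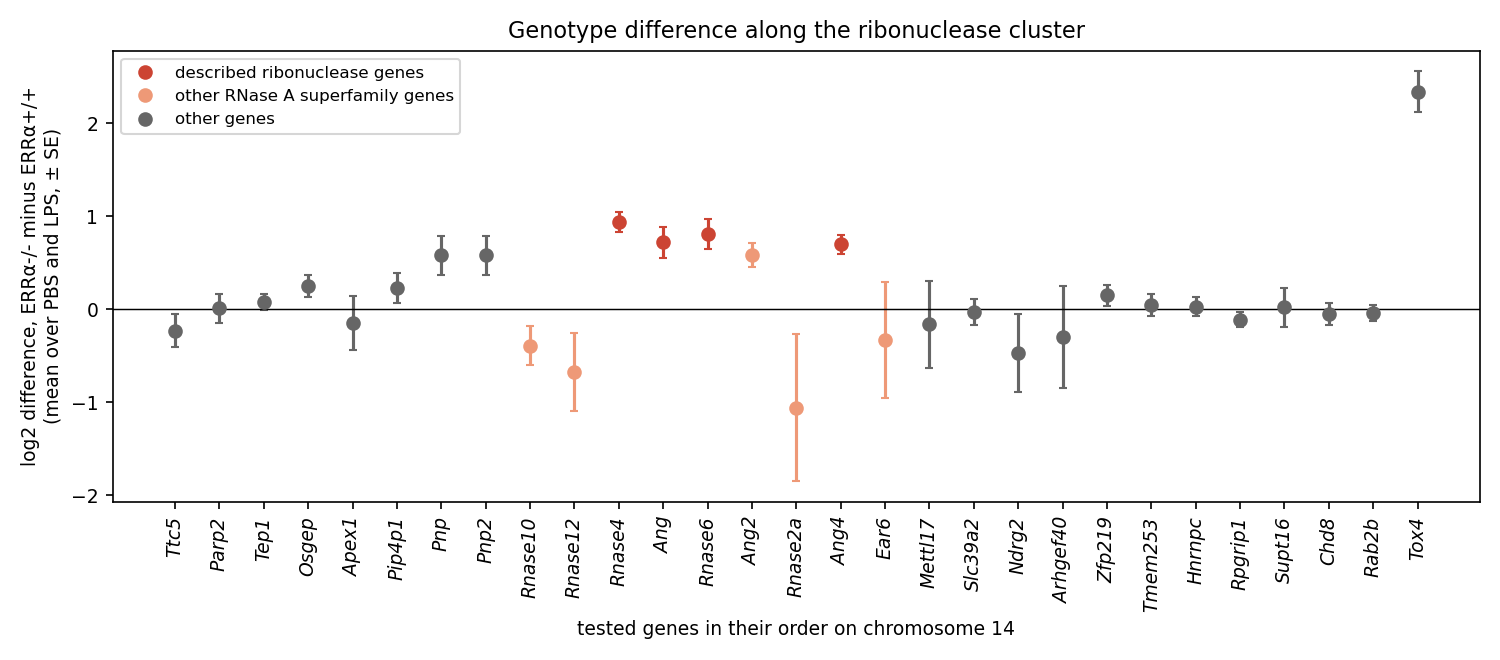
Genotype difference averaged over PBS and LPS (log2, ± SE) for the tested genes in their order along chromosome 14; colours part the 4 described genes, other superfamily genes and the rest. Rnase4, Ang, Rnase6 and Ang4 lie between 0.70 and 0.94 with Ang2 at 0.58 among them, and Tox4 at the right end reaches 2.34.

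Of these neighbours, only Tox4, a chromatin-binding phosphatase subunit gene at the edge of the window, was called for genotype. It rose by 2.19 under PBS (adjusted p = 0.0218), 2.49 under LPS (adjusted p = 0.0149) and 2.34 ± 0.22 averaged (adjusted p = 0.00127). A second probe of Tox4, well above background on all 12 arrays, differed by 0.23. The PBS call was lost without any of 5 arrays (adjusted p up to 0.112) and the LPS call without any of 4 (up to 0.087).

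Genes with the level pattern most like each ribonuclease were ranked by Pearson's r over the 12 arrays, which share the array scaling and the 4 groups. For Rnase4 they were Cnbd2 (r = 0.952), Scarb1 (0.94), the high-density lipoprotein receptor gene, and Nucb2 (0.932). For Rnase6 they were Padi4 (0.983), a peptidylarginine deiminase gene, Plxnb3 (0.963) and Ang2 (0.951). For Ang they were Vill (0.956), Cnbd2 (0.937) and Klk1b22 (0.932), and for Ang4 they were Cnbd2 (0.933), Ang2 (0.933) and Rnase4 (0.931). Cnbd2 stood in the top 3 of 3 of the 4 genes. Its averaged genotype difference was 0.87 ± 0.12 and its LPS differences -0.97 and -0.67. The signal of Cnbd2 was low, 18.6 to 31.3 on the ERRα+/+ LPS arrays, so these sizes are uncertain. It has 2 probes on the array, and only the kept probe with the highest mean was read. Among themselves the 4 genes had r of 0.871 to 0.931.

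After the mean of each treatment on each slide was subtracted, which leaves genotype and the scatter between replicates, the closest genes changed. On slide 1 each treatment had 1 array of each genotype, so their deviations mirror each other, which raises r. They were Acaa1a (0.993), Acaa1b (0.991) and Fxyd2 (0.988) for Rnase4, and Nlrp1a (0.995), Klk1b24 (0.987) and H2-T10 (0.986) for Rnase6. For Ang they were Shfl (0.988), Cnnm4 (0.981) and Il2ra (0.975), and for Ang4 Neu1 (0.985), Slc25a1 (0.981) and Vill (0.981). Their averaged genotype differences ran from 0.18 ± 0.16 for Neu1 to 1.69 ± 0.28 for Fxyd2, with 0.69 ± 0.70 for Il2ra. These genes need not share the LPS response: Acaa1a and Acaa1b, peroxisomal thiolase genes, rose with LPS in ERRα+/+ cells by 0.81 and 1.09, while Rnase4 was lower. Among themselves the 4 ribonuclease genes had r of 0.788 to 0.898 on this measure, which many other genes exceeded: Rnase6 ranked 753 by its likeness to Rnase4.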

How the data were processed

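RNA of 12 macrophage samples was labelled with Cy3 and hybridised to a single array design. The deposited intensity is the processed signal, which per the file headers was background-subtracted and detrended without scaling between arrays by Agilent Feature Extraction 11.5.1.1; the submitters' processing notes name 9.3.2.1. Raw median spot and background intensities and spot flags were deposited beside it, per the file headers. The authors' deposited value matrix equalled the processed signal at 100% of the 62976 spots of each array.

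Control spots were left out, and the log2 processed signals of the remaining 59305 spots were set against each array's 75th percentile. Outlier spots were then left out, and the other spots of a probe were averaged. A probe was kept if well above background on all 3 arrays of a group, at the majority of its spots; the kept probe with the highest mean stood for a gene. Names came from RefSeq by accession (27509 probes). No columns of other samples were present (0).

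limma 3.58.1 in R 4.3.3 (with its data.table package, version 1.17.8) fitted 1 mean per group over 13118 genes, with empirical Bayes moderation and Benjamini-Hochberg adjustment; adjusted p under 0.05 counted as called, in 6 contrasts. The script was tested on simulated data. Replicate numbers are taken from the sample titles (the first replicate carries none). Deviations of same-numbered samples from their group means correlated at 0.144 to 0.784 in every pair, above 0.1, so the numbers were taken to pair the samples. Different-numbered samples of different groups correlated at 0.129 to 0.556 within slide 2 and at -0.711 to -0.171 across slides, so number and slide are not told apart by this check. Every SE and interval given is of the fit without a block, which leaves this pairing out. Calls with the replicate block are given beside it. Motifs were searched with Python 3.11.15, and plots were drawn with matplotlib 3.10.9.

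The genes and lists were chosen with earlier results of these data known. Named are the 4 genes, Esrra, of each list all called genes (above 5, the 3 largest rises and falls) and the 3 genes most like each ribonuclease gene; Ear1, Ear2, Ear10, Rnase2a, Prg2 and genes named as not called were named after their values were seen. Some called list genes are not reported here. Alternatives were normexp (offset 50), quantile normalization, other probe filters, the mean over probes, slide and replicate blocks, slide 2 alone, array weights and leaving out each array.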

Additional observations from a re-analysis of the deposited data

How the results depend on the processing

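Under 22 alternatives the 4 genes kept the sign of both LPS responses and all 3 genotype differences, the averaged one ranging over 0.90 to 1.02 for Rnase4, 0.58 to 0.87 for Rnase6, 0.60 to 0.81 for Ang and 0.39 to 0.73 for Ang4. The difference of the LPS response kept its sign in 22 of them for Ang4 (0.22 to 0.39), 21 for Ang (0 with normexp), 20 for Rnase4 and 16 for Rnase6. Many of these alternatives could not change a difference. By design the probe rules, the deposited matrix and the slide and replicate blocks left it as it was. So did leaving out an array of a group outside the contrast. The genes were chosen with these differences known, so the kept signs only describe them. Normexp background correction gave LPS responses in ERRα+/+ cells of -0.44 for Rnase4, -0.94 for Rnase6, -0.51 for Ang and -0.65 for Ang4, Ang4 genotype differences of 0.27 under PBS, 0.50 under LPS and 0.39 averaged, and a difference of LPS responses of -0.41 for Rnase4. Within slide 2 the LPS responses were -0.91 for Rnase4 in ERRα+/+ and -1.45 for Rnase6 in ERRα-/- cells, the genotype differences under LPS 1.04 and 0.49, and the differences of LPS responses 0.03 and -0.23. Array weights gave -0.94 for Rnase4 in ERRα+/+ cells, 1.05 and 0.47 under LPS and 0.08 and -0.23 for the difference of LPS responses.

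Counts of genes called moved more. Called for LPS were 9519 within slide 2 and 9608 with array weights in ERRα+/+ cells, and 10827 with array weights in ERRα-/- cells. Under PBS the genotype count of 59 became 5 with no filter on dim probes, 279 with slide as a block, 1277 within slide 2, 205 with the replicate block and 1504 with array weights. Under LPS, 17 became 6, 215, 2284, 134 and 4305 in the same order, and averaged, 174 became 98, 645, 2687, 512 and 3739. The difference of LPS responses called 1 gene with normexp, 582 within slide 2 and 1340 with array weights. The array weights were 0.102 to 0.203 on slide 1 and 0.786 to 5.30 on slide 2. Leaving out 1 array at a time gave 3 to 82 genes under PBS, 3 to 72 under LPS and 86 to 263 averaged. The cause was not tested. The replicate block changed no other call of the 4 genes. Quantile normalization moved no value of the 4 genes beyond the spread between replicates. The remaining probe rules could not move a value, since each of these genes has 1 probe.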

Other observations

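Vill, Acaa1a and Acaa1b, which came up among the closest patterns of Ang, Ang4 and Rnase4, lie near each other on chromosome 9, with 7 coding genes between Acaa1a and Vill and 4 between Acaa1a and Acaa1b in RefSeq's order. Acaa1b, a peroxisomal thiolase gene, read 2.38, 2.15 and 2.21 in ERRα+/+ PBS cells and 3.06, 2.91 and 2.97 in ERRα-/- PBS cells, without overlap. Its averaged genotype difference was 0.64 ± 0.10 (limma adjusted p = 0.0111), against 0.57 ± 0.14 for Vill (adjusted p = 0.106) and 0.54 ± 0.14 for Acaa1a (adjusted p = 0.126). Cnbd2 read -3.61, -3.23 and -3.29 in ERRα+/+ PBS and -2.79, -2.71 and -2.48 in ERRα-/- PBS cells, and Scarb1 differed by 0.93 ± 0.13 averaged (adjusted p = 0.00592). These genes were picked for their likeness to the ribonucleases, so their genotype differences are not independent of it.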
